A study of Mus musculus with 12 samples.

Results

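Antisense genes are long noncoding genes transcribed from the strand opposite another gene, and 751 of the 63116 merged transcription initiation elements on chromosomes 1 to 19 of mouse spermatocytes lay at their start sites and at no others. An element was the union of overlapping or touching dREG peaks of the 3 prophase I substage lists, and it was counted here when its edge was less than 1000 bp from a transcription start site (TSS) of a GENCODE M21 gene of type antisense and 1000 bp or more from the TSSs of genes of every other type. In all, 1918 autosomal elements were under 1000 bp from an antisense TSS, and 1167 of them were left out because a TSS of another type was also under 1000 bp away. The 751 elements had 532 nearest antisense genes, of which 360 had 1 element, 133 had 2, 32 had 3, 6 had 4 and 1 had 5, so elements of the same gene are not independent of each other.

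Chromatin run-on sequencing maps RNA polymerases that are engaged on DNA, polymerase II among them, and dREG is a classifier that finds places where polymerases start in both directions, as at active promoters and enhancers. An antisense promoter inside a gene drives a transcript that runs against the host gene, and the best known of them, such as the imprinted Airn, act on the chromatin or on the transcription of the gene they cross. Testis is known for transcribing many long noncoding RNAs, most of which have no known function.

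The libraries were length extension chromatin run-on (leChRO-seq) libraries from wild-type male mice, with no treatment. Leptonema/zygonema, pachynema and diplonema cells were enriched from adult testes by STA-PUT sedimentation, with 4 libraries each and 12 in all, and the study used mice of the C57Bl/6J or DBA/2J background without tying a background to a library. The fractions are enriched, not pure, and the study's staining found mostly elongated spermatids among the other cells. The 4 libraries of a substage were pooled before peaks were called, so each substage is a single list: 71107 leptonema/zygonema, 68352 pachynema and 38603 diplonema peaks, with dREG scores from 0.231 to 1.632 over the 3 lists. There is no replicate of any peak, the lists give no read depth for a score, and no test between substages or between classes of element was made. The 95% intervals below (Wilson intervals for shares, order-statistic intervals for medians) cover the counting of elements only.

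The lists were checked against marker genes by whether a peak lay at a TSS of the gene, as was so for 60.7%, 61.2% and 52.3% of all autosomal protein-coding genes in the leptonema/zygonema, pachynema and diplonema lists. The 7 leptonema/zygonema markers had a peak at 7, 7 and 6 promoters in the leptonema/zygonema, pachynema and diplonema lists. All 8 pachynema markers had a peak in every list, so these markers did not tell the substages apart. Spermatid markers, among them Prm1 and Tnp1, had a peak at 7 of 8 promoters in every list, and spermatogonia markers at 5, 6 and 5 of 8. Of 8 Sertoli markers, 2 had a leptonema/zygonema peak, 5 a pachynema and 4 a diplonema peak, and of 6 Leydig markers 0, 2 and 1 did. None of the 6 myoid, endothelial and macrophage markers had a peak in any list. The Sertoli counts in pachynema and diplonema were near the share of any gene. What RNA from other cells adds to any antisense element was not tested.

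Of these elements, 8 are printed here because they carry the patterns described below: the 201 bases around the centre of the highest-scoring peak, on the strand of the antisense gene, 5′ to 3′, from the GRCm38 assembly. Capitals mark matches, on either strand, to the words searched (given with the motif results, NRF1's by name alone; it has no match in these 8).
4921513I08Rik, chr7:78254131-78254331, plus strand: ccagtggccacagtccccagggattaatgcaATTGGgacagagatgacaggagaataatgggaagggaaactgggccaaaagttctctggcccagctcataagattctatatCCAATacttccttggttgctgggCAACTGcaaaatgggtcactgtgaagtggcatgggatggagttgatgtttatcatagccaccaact
Gm34408, chr12:37474996-37475196, minus strand: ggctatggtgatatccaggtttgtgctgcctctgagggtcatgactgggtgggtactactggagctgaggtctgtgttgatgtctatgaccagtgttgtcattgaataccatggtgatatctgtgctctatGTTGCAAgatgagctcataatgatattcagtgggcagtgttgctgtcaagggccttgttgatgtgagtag
4930403D09Rik, chr11:34299631-34299831, plus strand: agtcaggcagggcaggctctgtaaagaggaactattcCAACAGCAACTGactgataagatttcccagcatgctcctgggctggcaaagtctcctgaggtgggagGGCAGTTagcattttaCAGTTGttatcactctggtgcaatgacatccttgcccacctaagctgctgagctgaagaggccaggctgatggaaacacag
4930414N06Rik, chr19:44984536-44984736, minus strand: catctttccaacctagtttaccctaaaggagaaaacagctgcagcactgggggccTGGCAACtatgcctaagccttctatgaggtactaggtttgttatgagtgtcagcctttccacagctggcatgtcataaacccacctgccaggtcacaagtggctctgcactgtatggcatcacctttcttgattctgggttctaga
1700125G02Rik, chr4:124894781-124894981, minus strand: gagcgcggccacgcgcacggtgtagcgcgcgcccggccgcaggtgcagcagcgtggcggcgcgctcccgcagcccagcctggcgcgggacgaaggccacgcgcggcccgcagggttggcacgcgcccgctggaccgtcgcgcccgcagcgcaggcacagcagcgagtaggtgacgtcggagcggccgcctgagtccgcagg
AC131185.1, chr19:45843451-45843651, plus strand: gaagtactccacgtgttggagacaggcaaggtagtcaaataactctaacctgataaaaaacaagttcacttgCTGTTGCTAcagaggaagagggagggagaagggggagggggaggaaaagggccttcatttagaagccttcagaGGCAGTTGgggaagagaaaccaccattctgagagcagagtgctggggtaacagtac
Hoxd3os1, chr2:74716051-74716251, minus strand: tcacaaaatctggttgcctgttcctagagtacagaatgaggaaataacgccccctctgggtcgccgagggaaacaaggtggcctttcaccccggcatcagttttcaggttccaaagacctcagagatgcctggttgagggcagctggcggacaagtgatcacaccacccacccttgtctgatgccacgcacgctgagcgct
Airn, chr17:12741246-12741446, plus strand: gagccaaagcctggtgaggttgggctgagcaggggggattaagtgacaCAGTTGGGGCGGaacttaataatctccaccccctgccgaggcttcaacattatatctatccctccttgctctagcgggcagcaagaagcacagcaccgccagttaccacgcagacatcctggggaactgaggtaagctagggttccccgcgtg
4921513I08Rik and Gm34408 were among the 8 highest scores of every list, 4930403D09Rik was near the bottom of the leptonema/zygonema list and near the top of the others, and 4930414N06Rik was called only in leptonema/zygonema. The next 3, 1700125G02Rik, AC131185.1 and Hoxd3os1, were called in pachynema and diplonema and not in leptonema/zygonema. Airn is the imprinted antisense RNA of Igf2r. The 1700125G02Rik window, inside a coding exon of Epha10, was 79.1% G and C with 36 CpG dinucleotides, whereas the first 4 windows held 0 CpG.

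Most antisense elements were called early in prophase I. A leptonema/zygonema peak was present in 617 elements (82.2%, 95% interval 79.3 to 84.7), against 78.2% of all elements on these chromosomes. A pachynema peak was present in 561 (74.7%, 71.5 to 77.7), against 72.1%, and a diplonema peak in 350 (46.6%, 43.1 to 50.2), against 39.0%. The leptonema/zygonema and pachynema shares were thus near the background, and the diplonema list is shorter for every class of element. When each list was cut to the length of the shortest, keeping the highest scores, the shares were 73.8%, 70.5% and 69.0% of the 539 elements left, beside 72.7%, 68.9% and 65.4% of all elements under the same cut.

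In the share called throughout, antisense elements stood between gene promoters and distal elements. In 279 elements (37.2%, 33.8 to 40.7) a peak was present in all 3 substages, against 31.4% of all elements, 51.1% (50.3 to 51.8) of the 17192 elements near protein-coding TSSs only, 42.2% (40.2 to 44.3) of the 2196 near lincRNA TSSs only and 17.8% (17.2 to 18.4) of the 15446 distal elements inside protein-coding genes. With lists of equal length the share was 45.8% (41.7 to 50.0), an interval that holds the 42.4% of all elements, against 58.2% of protein-coding-only and 49.0% of lincRNA-only elements. Another 167 elements (22.2%) were called in both of the earlier lists but not in diplonema, beside 21.8% of all elements. Leptonema/zygonema alone held 162 (21.6%, 18.8 to 24.7), against 24.3% of all elements, 14.0% of protein-coding-only, 16.0% of lincRNA-only and 32.4% of distal elements. The other patterns were less frequent. Pachynema alone held 72 (9.59%, 7.68 to 11.9; 14.8% of all elements), pachynema with diplonema 43 (5.73%, 4.28 to 7.62; 4.0%), diplonema alone 19 (2.53%; 3.04%) and leptonema/zygonema with diplonema 9 (1.2%; 0.566%). A pachynema peak without a leptonema/zygonema peak was present in 115 of the 751 elements (15.3%, 12.9 to 18.1), beside 18.8% of all elements. Pachynema with diplonema stood above both protein-coding-only (3.4%) and distal elements (4.07%), so the order did not hold for every pattern, and pachynema alone stood below distal elements (17.2%) and within the counting error of protein-coding-only ones (11.5%).

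**Figure D1:**
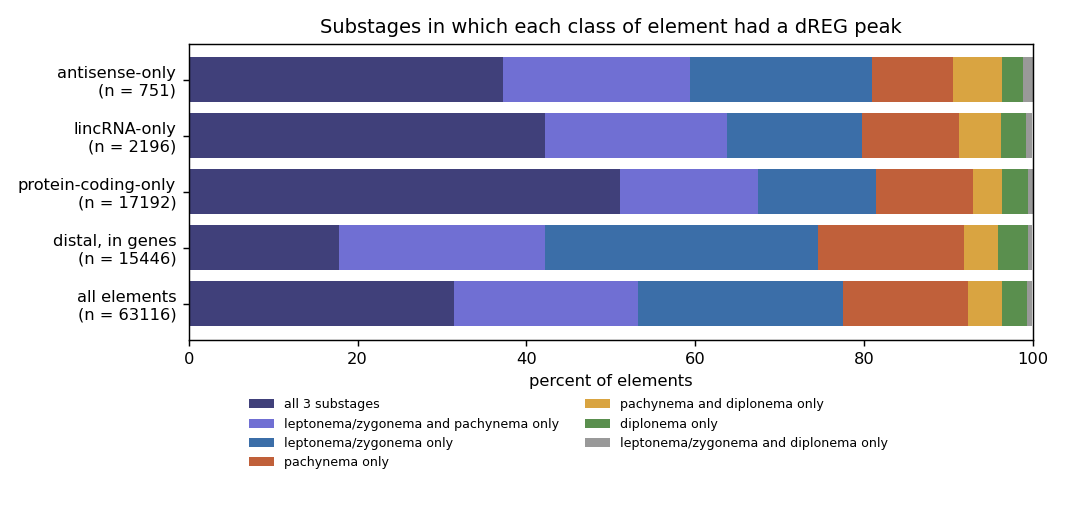
Stacked bars give the percent of elements (x axis, 0 to 100) with each combination of substage peaks, for 5 classes of element with their number n; the distal class lies inside protein-coding genes. The antisense-only bar has 37.2% called in all 3 substages, below the lincRNA-only 42.2% and the protein-coding-only 51.1%, and 21.6% called in leptonema/zygonema only.

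The scores placed the antisense elements above distal elements and below gene promoters. dREG scores are not scaled between substages, so the rank of an element among all autosomal elements called in the same list is given beside each score. The median best score was 0.74 (0.663 to 0.833) in leptonema/zygonema, the 57.2 percentile of that list. It was 0.728 (0.676 to 0.761) in pachynema, the 58.9 percentile, and 0.575 (0.53 to 0.642) in diplonema, the 47.3 percentile. Protein-coding-only elements had medians of 0.843, 0.81 and 0.727, at the 63.7, 64.5 and 61.9 percentiles, lincRNA-only elements 0.761, 0.731 and 0.635, and distal elements inside genes 0.526, 0.5 and 0.462. The antisense elements therefore ranked above the middle of the first pair of lists and, with an interval that spans the middle (42.7 to 53.9), at about the middle of the diplonema list.

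Because the lists differ in length, ranks were compared between substages only among the 19847 elements called in all 3 lists, a choice made after the data were seen. The 279 antisense elements of that kind had median percentiles of 57.5 (51.9 to 63.7) in leptonema/zygonema, 50.6 (44.3 to 55.5) in pachynema and 47.1 (40.6 to 53.0) in diplonema. The median shift from leptonema/zygonema to diplonema was -7.8 points (-10.8 to -4.94), against 6.85 (6.23 to 7.38) for protein-coding-only, -3.44 (-5.62 to -1.51) for lincRNA-only and -10.9 (-12.4 to -9.72) for distal elements inside genes. It was 20 points or more downward in 96 of the 279 elements (34.4%) and upward in 47 (16.8%), against 23.3% and 23.8% of all 19847. The step from leptonema/zygonema to pachynema was -3.21 points (-5.28 to -1.41), and that from pachynema to diplonema was -2.42, with an interval that spans 0 (-4.41 to 0.307).

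An element could overlap the antisense TSS or lie beside it. The element covered a TSS in 434 (57.8%, 54.2 to 61.3), against 66.8% of protein-coding-only and 61.4% of lincRNA-only elements. Of the other 317, 57 lay less than 250 bp away, 110 from 250 to less than 500 bp and 150 at 500 bp or more. The split rests on how peaks are merged: with peaks up to 100 bp apart joined, 73.2% of elements covered a TSS, and up to 500 bp, 83.7%. Over a TSS the best peak centre had a median offset of -46 bp, where negative values are upstream of the antisense transcript, and it was upstream in 300 elements (69.1%) and within 100 bp of the TSS in 287 (66.1%). Beside a TSS the centre was downstream in 179 (56.5%).

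**Figure D2:**
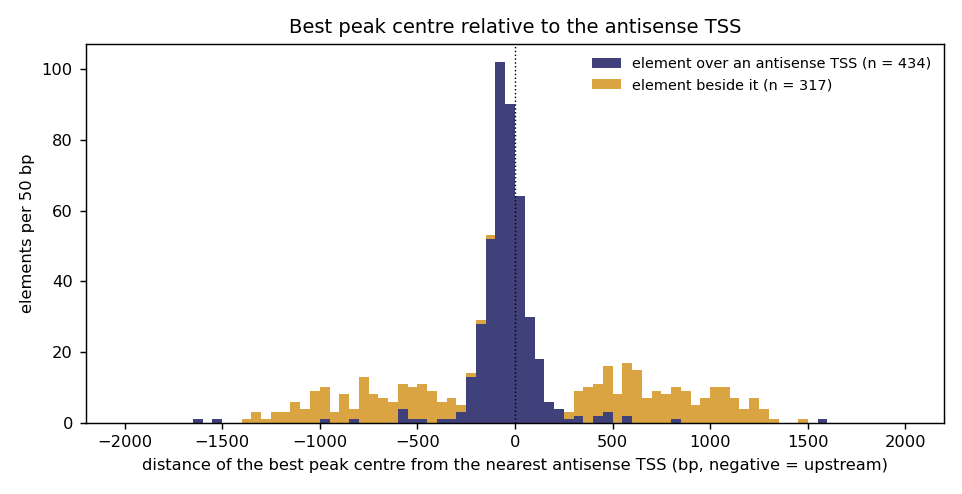
The histogram counts antisense-only promoter elements per 50 bp (y axis) by the distance in bp from the nearest antisense TSS to the centre of the element's best peak (x axis, negative upstream), for the 434 elements over a TSS and the 317 beside one. The elements over a TSS form a narrow peak with a median of -46 bp, and the others spread over both sides.

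Elements over an antisense TSS were called more widely and scored higher. A leptonema/zygonema peak was found in 89.9% (86.7 to 92.4) of them, a pachynema peak in 89.2% (85.9 to 91.8), a diplonema peak in 63.6% (59.0 to 68.0) and all of these in 56.0% (51.3 to 60.6). Beside a TSS these shares were 71.6%, 54.9%, 23.3% and 11.4%, and 38.5% (33.3 to 43.9) of the elements were called in leptonema/zygonema only, against 9.22% over a TSS. The median scores over a TSS were 0.972, 0.859 and 0.661, and beside one 0.424, 0.436 and 0.393. Width followed the same split, at a median of 790 bp against 430 bp, and wider elements have more room to cover a TSS. With both classes taken over a TSS, protein-coding-only elements had a diplonema peak in 73.6% (72.7 to 74.4) and a peak in all substages in 69.3%, and lincRNA-only elements in 65.2% (62.6 to 67.7) and 59.3% (56.7 to 61.9). The antisense elements over a TSS were thus within the counting error of the lincRNA-only elements and lower than the protein-coding-only ones. Calls and scores of those classes beside a TSS are not given here. Whether the split between over and beside is particular to antisense elements was therefore not tested.

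**Figure D3:**
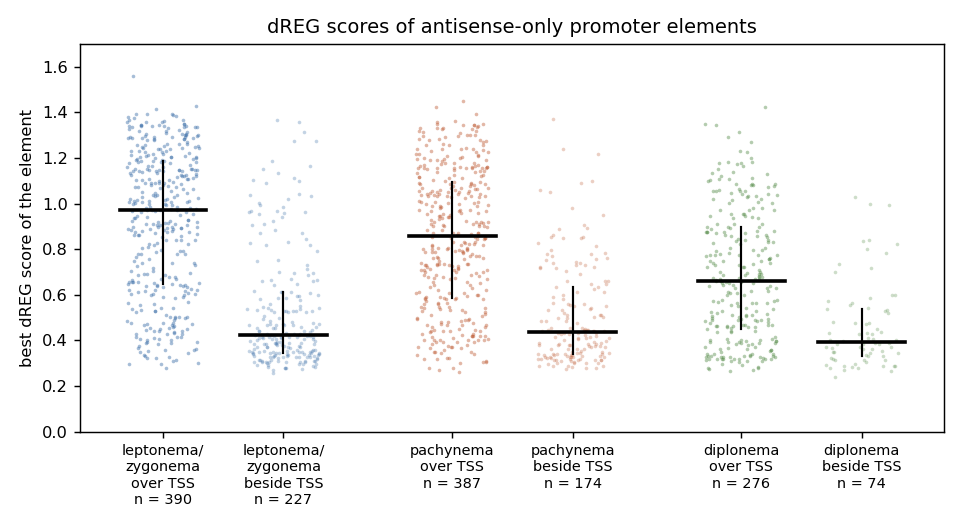
Each point is the best dREG score (y axis) of an antisense-only promoter element in one substage, for elements over and beside an antisense TSS, with the number n called; the horizontal line is the median and the vertical line spans the quartiles. Medians are 0.972, 0.859 and 0.661 over a TSS and 0.424, 0.436 and 0.393 beside one.

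Seen from the genes, a minority of antisense genes had an element at a start site. Of 2913 autosomal antisense genes, 1920 had a TSS 1000 bp or more from TSSs of other types, and 430 of these (22.4%, 20.6 to 24.3) had an element of the set over a TSS. By substage the shares were 20.2%, 20.2% and 14.4%. The same count gave 29.1% (27.8 to 30.4) of 4708 lincRNA genes and 54.6% (53.9 to 55.3) of 20072 protein-coding genes. A gene without an element is one at which dREG called no peak, which does not show that it was not transcribed.

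The highest scores belonged to elements called throughout, nearly all of them over a start site. The 8 highest in each list gave 18 different elements, all of them called in all 3 substages, beside 37.2% of the whole set. Of the 18, 17 covered an antisense TSS, beside 57.8% of the whole set. In an intron were centred 11 (61.1%, beside 63.5% of the whole set), and 4 stood among the 8 highest of more than 1 list. The 18 were picked by score, with a lowest best score of 1.271. In the whole set, score and calls went together: the median best score was 1.14 for elements called throughout and 0.389 for leptonema/zygonema only. Shares among equally high-scoring elements of other classes are not given here. The element of 4921513I08Rik, in an intron of Ntrk3, the receptor of neurotrophin-3, scored 1.561 in leptonema/zygonema, 1.448 in pachynema and 1.345 at the diplonema stage, and was at the 99.9 percentile or above in every list. Gm34408, in an intron of the alkylglycerol monooxygenase gene Agmo, scored 1.386, 1.423 and 1.425, the last being the highest score of the diplonema list. Both were among the 8 highest of each substage.

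Other elements stood high in leptonema/zygonema and lower later, by their percentiles among the elements called in all 3 lists. 4930486I03Rik, in an intron of Pkhd1, which encodes the cilium protein fibrocystin, scored 1.428, 1.316 and 0.784, and stood at the 99.2, 95.7 and 60 percentiles. Pard3bos1, against the cell polarity gene Pard3b, scored 1.413, 1.085 and 0.638, at the 98.8, 61.4 and 44.8 percentiles. 1700034H15Rik, past the zinc transporter gene Slc30a1, scored 1.395, 0.83 and 0.63, at the 98.1, 30.7 and 43.9 percentiles. Gm35934, near the acyltransferase gene Agpat5, scored 1.366, 1.347 and 0.494, at the 96.4, 97.8 and 29.0 percentiles. The later rank was thus already lower in pachynema for Pard3bos1 and 1700034H15Rik, and only in diplonema for Gm35934. Most of these were chosen for a high leptonema/zygonema score, which by itself favours a lower rank later, and 4 of the 8 highest in leptonema/zygonema stood at the 95.5 percentile or above in every substage, among them 4921509A06Rik at the 97.9, 96.5 and 97.7 percentiles.

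Other elements went the other way on the same scale. From leptonema/zygonema to diplonema, 47 of the 279 (16.8%) rose by 20 points or more. 4930403D09Rik, in an intron of Dock2, which encodes a Rac activator of leukocytes, scored 0.312 in leptonema/zygonema, then 1.24 and 1.271, at the 0.912, 86.9 and 99 percentiles. Gm14244 scored 0.78, 1.278 and 1.313, at the 25.3, 92.0 and 99.6 percentiles. 1700026D11Rik scored 1.187, 1.358 and 1.351, at the 71.3, 98.2 and 99.9 percentiles. These were chosen for a high diplonema score, and there is no replicate of any of the scores, so their error is not known.

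**Figure D4:**
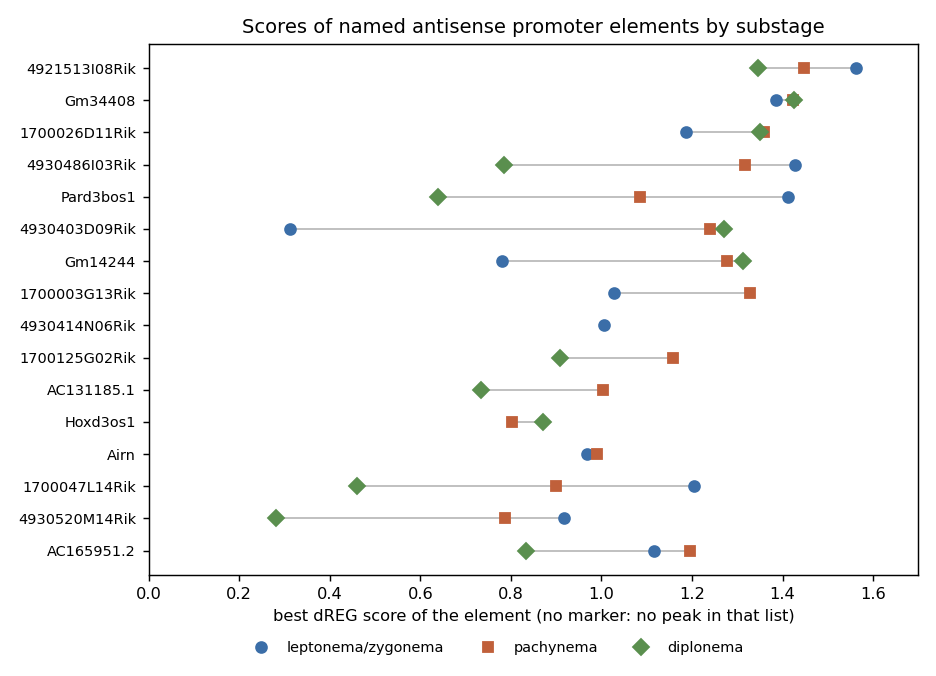
Markers give the best dREG score (x axis) of 16 named antisense promoter elements in leptonema/zygonema (circle), pachynema (square) and diplonema (diamond); a missing marker means no peak in that list and a line joins the lowest and highest. 4930403D09Rik spans 0.312 to 1.271, while Gm34408 stays between 1.386 and 1.425; scores are not scaled between substages.

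Elements missing from a list scored lower where they were called. The best score had a median of 1.14 (1.1 to 1.16) for elements called throughout, 0.715 for leptonema/zygonema with pachynema, 0.609 for pachynema with diplonema, 0.389 for leptonema/zygonema only, 0.381 for pachynema only and 0.319 for diplonema only. Called elements of a single list were thus mostly weak, at the 21.7, 21.3 and 9.61 percentiles. The highest of them in leptonema/zygonema were 4930414N06Rik, just past the end of the DNA repair gene Slf2 (1.005), Gm16180 in the insulin receptor gene Insr (0.983) and Gm26628 over a coding exon of the RNA polymerase I subunit gene Polr1a (0.973). Pachynema-only elements reached 0.706 at 2610206C17Rik and 0.699 at 4931431C16Rik, and diplonema-only elements 0.597 at Gm37468. A diplonema peak could be missing after a high score: 1700003G13Rik, in an intron of the serine protease gene Tmprss13, scored 1.028 and 1.329 and had no diplonema peak.

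The 43 elements called in pachynema and diplonema only were led by the ones printed above. 1700125G02Rik, against the ephrin receptor gene Epha10, scored 1.159 in pachynema and 0.909 in diplonema. AC131185.1, against Armh3, scored 1.003 and 0.735. Hoxd3os1, against the homeobox gene Hoxd3, scored 0.803 and 0.871, and 3 more elements of the same antisense gene lay within 1000 bp of its start sites, none with a leptonema/zygonema peak and none scoring above 0.417. Of this pattern 23.3% (13.2 to 37.7) had a CpG observed/expected ratio of 0.6 or more, beside 21.5% of all elements with the pattern. For pachynema only the share was 15.3% (all elements 15.2%), for leptonema/zygonema only 5.56% (9.38%), for leptonema/zygonema with pachynema 9.58% (16.6%) for elements called throughout 11.8% (8.55 to 16.1; 43.8%), for diplonema only 0 of 19 (14.3%) and for leptonema/zygonema with diplonema 1 of 9 (21%). The antisense share was thus below that of all elements of the same pattern for those called throughout and, by less, for leptonema/zygonema with pachynema (interval 5.98 to 15.0), and within the counting error for the rest.

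Meiosis, spermiogenesis, piRNA and pachytene regulator genes stood opposite an antisense element at shares whose intervals hold that of all genes. Of all 20807 autosomal protein-coding genes, 463 (2.23%) did. Of the 52 meiosis genes found, Rnf212 and Sun1 did (3.85%, 1.06 to 13.0). 1700047L14Rik, in an intron of Rnf212, a crossover factor, scored 1.205, 0.9 and 0.46. 4930520M14Rik, in an intron of Sun1, which ties telomeres to the cytoskeleton through the nuclear envelope, scored 0.918, 0.786 and 0.281. Among the elements called in all 3 lists they stood at the 74.4, 38.0 and 24.7 percentiles and at the 35.8, 26.4 and 1.39 percentiles. Of the 46 spermiogenesis genes, Dnah8 and Tnp1 stood opposite an element (4.35%, 1.2 to 14.5). Tnp1 was also the only 1 of 8 spermatid markers to do so (12.5%, 2.24 to 47.1). A count of 1 gene is too small to read as more than the 2.23% of all genes. Leptonema/zygonema, pachynema and spermatogonia markers had 0. AC165951.2, against the sperm dynein gene Dnah8, scored 1.116, 1.195 and 0.833 at the TSS and 0.354, 0.316 and 0.403 at a second element. 1700027A15Rik, against the transition protein gene Tnp1, scored 0.298, 0.368 and 0.356 at the TSS. Among the elements called in all 3 lists, that element stood at the 0.509, 1.7 and 10.9 percentiles. A second element of the gene scored 0.281 and had a pachynema peak only. The 19 piRNA genes and 27 pachytene regulators had 0, with intervals of up to 16.8% and 12.5% that hold the share of all genes. The promoters of Rnf212, Sun1, Dnah8 and Tnp1 themselves had a peak in every list. Gm29682, in an intron of the endothelial cadherin gene Cdh5, scored 0.449, 0.395 and 0.478 although Cdh5 had no promoter peak in any list. Cdh5 was the only 1 of 6 myoid, endothelial and macrophage markers opposite an element (16.7%, 3.01 to 56.4). This too is a count of 1 gene, too small to set apart from the 2.23% of all genes. Sertoli and Leydig markers had 0.

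Of 13 imprinted antisense RNAs listed, 6 names were not matched in the annotation and 4 of the others are annotated as antisense genes. Of these 4, 1, Airn, had an element of the set, beside 26.1% of the 1920 antisense genes with a TSS away from those of other types. Its start, in an intron of Igf2r, the receptor that clears insulin-like growth factor 2, scored 0.968 in leptonema/zygonema and 0.99 in pachynema and had no diplonema peak. A second element 203 bp from an Airn TSS scored 0.576 and 0.444 and likewise had no diplonema peak. The Igf2r promoter had a peak in all 3 lists.

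Genes named for the gene they oppose, with symbols in os or as, had 95 elements at 65 genes. Of these 31 (32.6%, 24.0 to 42.6) reached a score of 1, near the 30.1% of the whole set, with 30 of them called throughout and 29 over a TSS. In the whole set too, elements called throughout scored highest, with a median best score of 1.14. The 31 were picked by score, and the matching shares of the 226 such elements of the whole set are not given here. The counts of 30 and 29 are therefore not read as particular to these genes. After Pard3bos1 the highest were Nell1os (1.387, 1.298 and 1.057), Lyzl4os (1.374, 1.361 and 1.108), Rab11fip4os2 (1.356, 1.002 and 0.638), Pitpnm2os1 (1.336, 1.283 and 0.889) and Ccdc34os (1.33, 1.271 and 1.123). Among the elements called in all 3 lists, Lyzl4os stood at the 97.0, 98.4 and 90.7 percentiles and Ccdc34os at the 93.3, 91.2 and 91.8, whereas Rab11fip4os2 stood at the 95.6, 49.8 and 44.8. For 83 of the 95 elements there was a protein-coding gene on the other strand, and for 13 of these (15.7%, 9.39 to 25) its promoter had no peak in any list, as for Nell1, beside 23.5% of the elements of the whole set with such a gene.

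The nearest antisense gene overlapped a protein-coding gene on the other strand for 686 elements (91.3%), 463 such genes in all. The best peak centre lay inside that gene for 554 (80.8%), past its end for 116 (16.9%) and before its start for 16 (2.33%). Those genes were long, with a median of 88.8 kb against 17.6 kb for all autosomal protein-coding genes, and the element lay a median of 15200 bp from their nearest TSS. By place, 477 centres (63.5%) were intronic, 52 (6.92%) in coding exons, 23 (3.06%) in UTRs, 4 in other exons and 195 (26.0%) outside protein-coding genes. Inside the gene, 143 centres (25.8%) fell in the last 20 percent of its length, against 18.4% of distal elements inside genes, and 109 (19.7%) in the first, against 23.2%. The rule's distance from other TSSs applies to both, but the gene was not picked alike. For antisense elements it was the overlapping opposite-strand gene that held most of the element. For distal elements it was the longest protein-coding gene, on either strand, that held the centre.

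The promoter of the opposite gene was called at shares with overlapping intervals where the antisense element was called and where it was not. The opposite gene had a promoter peak in 68.9% (64.5 to 72.9) of 463 genes in leptonema/zygonema, against 60.7% of all protein-coding genes, in 72.6% (68.3 to 76.4) in pachynema, against 61.2%, and in 59.4% (54.9 to 63.8) in diplonema, against 52.3%. In leptonema/zygonema the opposite promoter had a peak for 70.1% (66.2 to 73.8) of called elements and 62.5% (53.6 to 70.6) of elements not called. In pachynema the shares were 73.7% and 68.4%, and in diplonema 58.9% and 59.4%, with overlapping intervals each time. For 161 elements (23.5%, 20.5 to 26.8) the opposite promoter had no peak in any list. Counted by gene it was 107 of 463 (23.1%, 19.5 to 27.2), against 35.2% of all protein-coding genes. Of the 161 elements, 54 (33.5%) were called in all 3 substages, beside 144 of 379 (38.0%) where the opposite promoter had a peak throughout. Of the 401 elements over a TSS with such a gene, 94 (23.4%, 19.6 to 27.8) at 90 genes had an opposite promoter without a peak, and 49 of the 94 (52.1%, 42.1 to 61.9) were called throughout, near the 56.6% of the 401.

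In base composition the antisense elements resembled lincRNA and distal elements, not gene promoters. The 201 bp windows had a median of 48.8% G and C (48.3 to 49.8), against 48.8% in lincRNA-only, 47.8% in distal and 58.2% in protein-coding-only elements. The CpG observed/expected ratio was 0.234 (0.215 to 0.249), against 0.228, 0.207 and 0.625. A ratio of 0.6 or more, as in CpG islands, was found in 80 elements (10.7%, 8.64 to 13.1), against 10.9% and 52.6% of lincRNA-only and protein-coding-only elements and 23.3% of all elements. It was found in 50.0% (36.9 to 63.1) of the 52 elements centred in coding exons and 5.45% (3.75 to 7.87) of the intronic ones. The 80 CpG-rich elements had a pachynema peak in 87.5% (78.5 to 93.1), beside 87.9% of all CpG-rich elements, and a leptonema/zygonema peak in 73.8% (63.2 to 82.1), beside 84.8%. The other 671 had them in 73.2% (69.7 to 76.4) and 83.2% (80.1 to 85.8), beside 67.3% and 76.1% of all elements with a ratio under 0.6. A diplonema peak was present in 55.0% (44.1 to 65.4) of the 80, beside 65.0% of all CpG-rich elements. In the other 671 it was present in 45.6% (41.9 to 49.4), beside 31.1% of all elements with a ratio under 0.6.

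The windows were searched on both strands for short words from the motifs of 8 kinds of factor. The RFX word was GTTGCNA, the short MYB word CAACNG, the long MYB word AACNGCC, and the last pair can overlap, since the long word repeats most letters of the short one. CCAAT stood for NFY, GGGCGG for SP/KLF, and TATAAA for the TATA box. CCGGAAG stood for ETS and TGACGTNA for CREB, and for NRF1 a word of its palindromic motif was used. A match is a description of the letters and not a bound site. The RFX word was present in 111 elements (14.8%, 12.4 to 17.5), against 10.8% of all elements, 12.5% (11.2 to 13.9) of lincRNA-only and 8.22% (7.82 to 8.64) of protein-coding-only elements. Over a TSS it was present in 78 of the 434 elements (interval 14.6 to 21.9%), against 15.1% (13.3 to 17.1) of lincRNA-only and 8.8% of protein-coding-only elements over a TSS. Among windows with a CpG ratio under 0.6 it was in 15.5% (13.0 to 18.4), against 12.1% (11.8 to 12.3) of all such elements. Elements that reached a score of 1, 30.1% of the set and 23.4% of all elements, held it in 21.2% (16.4 to 27.0), against 14.4% of all such elements, and those under 1 in 12% (9.49 to 15.1) against 9.67%, within the counting error. Elements with the word, such as those of Gm34408, 4930414N06Rik and AC131185.1 printed above, had a leptonema/zygonema peak in 91.0% of the 111 and a median leptonema/zygonema score of 0.96 (0.841 to 1.03), against 80.6% (77.4 to 83.5) and 0.69 (0.646 to 0.789) without it. Over all elements these values were 85.8% and 0.782 with the word and 77.2% and 0.621 without it.

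The MYB words were about as frequent as in all elements. AACNGCC was in 77 elements (10.3%, 8.28 to 12.6), against 9.63% of all, and CAACNG in 237 (31.6%, 28.3 to 35.0), against 30.4% of all, 32.6% of lincRNA-only and 25.8% (25.2 to 26.5) of protein-coding-only elements. Over a TSS CAACNG was in 36.2% (31.8 to 40.8), against 35.1% and 26.3%. CAACNG was in 39.8% (34.2 to 45.6) of the antisense elements called throughout, beside 31.7% of all elements called throughout. It was in 27.5% (all elements 29.8%) for leptonema/zygonema with pachynema, 25.9% (28.4%) for leptonema/zygonema only, 16.7% (9.8 to 26.9; 30%) for pachynema only, 34.9% (38.4%) for pachynema with diplonema, 42.1% (23.1 to 63.7; 27.5%) for diplonema only and 33.3% (31.4%) for leptonema/zygonema with diplonema. The antisense share was thus above that of all elements where they were called throughout and below it for pachynema only, and within the counting error for the other patterns. All elements called throughout are a different mix: 8778 of the 19847 were protein-coding-only. A CpG ratio of 0.6 or more was found in 43.8% of them, against 11.8% of the antisense ones. Whether the difference holds beside lincRNA-only or CpG-matched elements of the same pattern was not tested. AACNGCC was in 16.3% (8.12 to 30) for pachynema with diplonema, 13.6% (10.1 to 18.1) for all 3 substages, 11.1% for pachynema only, 10.5% for diplonema only, 8.38% for leptonema/zygonema with pachynema, 4.94% (2.52 to 9.44) for leptonema/zygonema only and 0 of 9 for leptonema/zygonema with diplonema. Over all elements the shares for these patterns were 19%, 11.3%, 10.3%, 9.65%, 8.12%, 6.86% and 10.6%, each inside the interval of the antisense share. Elements with AACNGCC, among them 4930403D09Rik and AC131185.1, had a diplonema peak in 61.0% (49.9 to 71.2), against 45.0% (41.2 to 48.7) without it. Over all elements it was 48.4% and 38.0%. A pachynema peak was present in 87.0% (77.7 to 92.8) against 73.3%, and over all elements in 79.0% and 71.3%. For leptonema/zygonema the direction was the other, 77.9% (67.5 to 85.7) against 82.6%, within the counting error, and over all elements 73.2% and 78.7%. Elements with the word were also wider (median 820 bp against 620 bp), and whether width or score accounts for these shares was not tested.

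Words of CpG-rich promoters were rarer than in all elements for SP/KLF and NRF1, and the differences were within the counting error at low CpG content. GGGCGG was in 9.99% (8.04 to 12.3) of the elements, against 17.5% of all and 38.4% of protein-coding-only elements, NRF1's word in 0.799% (0.367 to 1.73) against 1.99%, and the ETS word in 3.46% (2.37 to 5.02) against 4.45%, which its interval holds, as it did not with 250 bp to each side (5.46%, 4.05 to 7.32, against 7.94%). Among windows with a CpG ratio under 0.6, GGGCGG was in 7.15% (5.44 to 9.36) against 7.51% of all such elements, the ETS word in 2.53% (1.59 to 4.02) against 2.37%, and NRF1's word in 0.149% (0.0263 to 0.839) against 0.275%. With 50 bp to each side NRF1's word was in 0.666% (0.285 to 1.55) against 1.07%, which that interval holds, and with 250 bp in 0.799% against 2.96%, which it does not. CCAAT was in 22.4% (19.5 to 25.5) against 26.1%, and at low CpG content in 22.8% (19.8 to 26.1) against 26.5%. With 250 bp to each side it was in 46.2% against 49.8%, the upper end of its interval. TATAAA was in 8.26% against 8.98% and the CREB word in 1.73% against 2.06%, differences within the counting error that change sign with the window. All 13 elements with the CREB word lay over a TSS (3.0% of the 434), and in lincRNA-only elements it was in 2.89% over a TSS and 0.945% beside one. It was in 0 of the 317 antisense elements beside a TSS, which allows a share of up to 0.946% by 3 counts of the total and 1.2% by the Wilson limit.

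**Figure D5:**
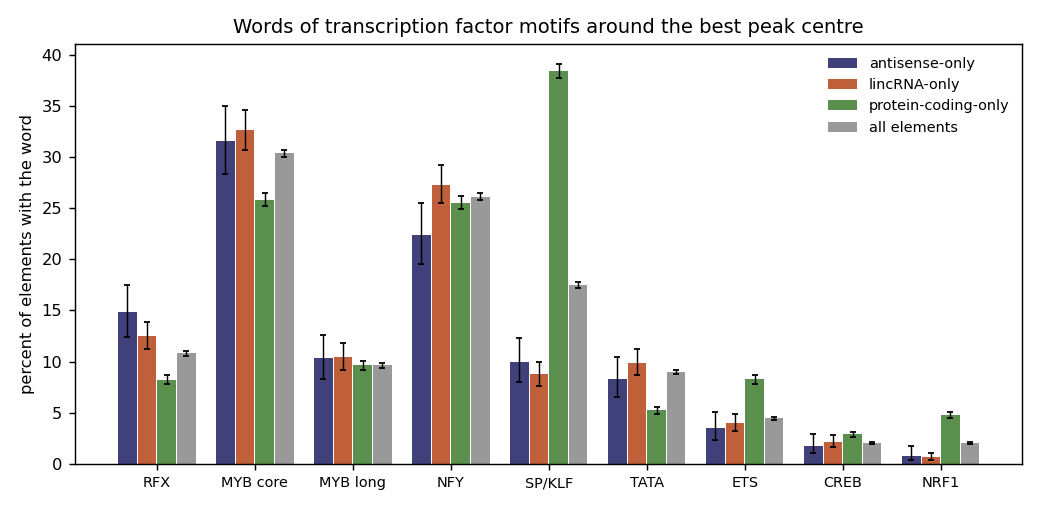
Bars give the percent of elements (y axis) whose 201 bp window holds each word on either strand, for 4 classes of element, with 95% Wilson intervals as error bars; MYB core is CAACNG and MYB long is AACNGCC. The RFX word stands at 14.8% in antisense-only elements against 10.8% of all elements, and the SP/KLF word at 9.99% against 38.4% of protein-coding-only elements.

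The distance rule cut through a continuous range. The elements just inside 1000 bp from an antisense TSS lay 996, 996 and 991 bp away, with best scores of 0.474, 0.839 and 0.398, and those just outside lay 1002, 1007 and 1021 bp away, with 0.576, 0.835 and 0.888. At the other limit, elements of the set lay 1000, 1007 and 1008 bp from a TSS of another type and scored 0.353, 0.325 and 1.215 at best. Elements left out at 994, 993 and 988 bp scored 0.685, 0.402 and 0.46.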

How the data were processed

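The authors deduplicated the reads by molecular identifier, trimmed them with cutadapt, mapped them with BWA to mm10 and ran dREG with default settings on the pooled libraries of each substage (bedtools is also named in the submitters' processing notes); the dREG version is not given in the sources used here. The deposited lists give for each peak a dREG score, with no fixed range, and a p-value of at most 0.05; whether it is adjusted is not given. Peaks were merged where they overlapped or touched, and distances to TSSs of GENCODE M21 transcripts were measured from the element's edge. The best peak centre was the midpoint of the highest-scoring peak. Sequences came from GRCm38.p6, the mm10 assembly (Python 3.11.15, pandas 2.3.3, scipy 1.17.1, pysam 0.24.0), and the code was tested on simulated data. Named elements were the 8 highest scores in each substage, the 3 highest of each call pattern, elements at listed imprinted antisense RNAs or opposite listed genes, and the highest with os or as symbols. These elements and lists were chosen with earlier results of these data known.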

Additional observations from a re-analysis of the deposited data

Results flagged for a closer look

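Chromosome X was outside the comparisons above. By the same distance rule, 6 elements lay near antisense TSSs only on the X chromosome, where 45 antisense genes are annotated, which is above the 3 that a count of 0 would allow and brought them to attention. Of these, 5 had a leptonema/zygonema peak, 4 a pachynema peak and 1 a diplonema peak. Their median best scores were 0.394 and 0.39 in the first pair of lists. Of all autosomal elements, 78.2% had a leptonema/zygonema peak, 72.1% a pachynema peak and 39.0% a diplonema peak. Shares over all X-chromosome elements are not given here, so whether these 6 differ from other X elements was not tested. Whether 6 elements for 45 genes differs from the autosomal rate was not tested either. The Y chromosome had 0 elements near antisense TSSs only and 1 antisense gene.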

How the results depend on the processing

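The 11 summary values were recomputed under 10 alternatives each, and 70 of the 110 stayed within the 95% interval of the reported value (or, for the number of elements, within 1.5 times). With dREG scores of at least 0.5 (512 elements), shares became 86.1% for leptonema/zygonema, 40.4% for diplonema, 32.8% for all 3 substages, 11.5% for pachynema without leptonema/zygonema and 72.9% over a TSS, with median scores of 0.968, 0.885 and 0.798. With p-values of at most 0.01, the leptonema/zygonema and diplonema medians were 0.846 and 0.653. With lists of equal length the substage shares were 73.8%, 70.5% and 69.0%, all 3 substages 45.8%, pachynema without leptonema/zygonema 11.5%, over a TSS 69.6%, and the leptonema/zygonema and pachynema medians 0.999 and 0.9. Merging peaks up to 100 bp apart gave 85.1%, 82.7% and 55.4% by substage, 46.5% in all 3, 73.2% over a TSS and medians of 0.895 and 0.79 in leptonema/zygonema and pachynema. Merging up to 500 bp apart gave 87.8%, 88.0% and 60.3%, 52.7% in all 3, 11.2% in pachynema without leptonema/zygonema, 83.7% over a TSS and medians of 0.96, 0.819 and 0.646. A limit of 500 bp from a TSS gave 78.0% in pachynema, 50.9% in diplonema, 41.7% in all 3 and 68.6% over a TSS. Distance from the element's centre gave 63.1% over a TSS, and 1 TSS per gene gave a median GC content of 50.7%. Transcript type and a limit of 2000 bp from other TSSs moved no summary value. The differences between the set and all elements in motif shares changed sign for AACNGCC with 250 bp to each side (-0.575 percentage points, 0.623 as reported), for the CREB word with 50 bp (0.143) and 250 bp (0.474, -0.333 as reported), and for TATAAA with 50 bp (0.422) and 250 bp (0.965, -0.721 as reported). For NRF1's word the difference was -1.19 as reported, -0.402 with 50 bp and -2.16 with 250 bp. No paired analysis was possible because the libraries of a substage were pooled before peaks were called and the lists carry no replicate numbers, so no replicate could be left out either. Ranks among all elements of each list, which differ in length, in place of ranks among the elements called in all 3 lists, moved the median shift of the antisense elements called throughout from -2.42 to -18.0 points between pachynema and diplonema, from -7.8 to -20.8 over both steps and from -3.21 to -1.59 between leptonema/zygonema and pachynema; the diplonema list is the shortest. The lists carry no read depth, so how far depth limits the absence of a peak was not tested.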

Other observations

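Repeats made up little of most windows, with a median of 9.45% of bases soft-masked in the assembly (4.48 to 9.95), against 10.4% of all elements, and 1.24% in the elements over an antisense TSS. Some named elements stood in repeats: the window of 1700047L14Rik in Rnf212 was 94.0% masked, that of Fhitos 71.1% and that of 1700034H15Rik 55.2%. How multiply mapped reads contribute to the peaks there was not tested.

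Antisense elements often had close neighbours. Another element lay within 100 bp of 302 of the 751 (40.2%) and within 1000 bp of 453 (60.3%), against 31.5% and 47.5% of all elements.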
